A study of Mus musculus with 27 samples.

Results

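The comparison set conventional type 1 dendritic cells (cDC1s) against monocytes, both sorted from the inflamed mouse colon, and asked which genes separated the cell types in wild-type (WT) and in *Mbd2*-/- mice alike. Arrays were chosen by their labels alone: tissue colon, with the cell type given as CD11bnegDC (5 arrays, taken here as cDC1s from the sort described below) or as Monocyte (10 arrays), 15 of the 27 arrays of the series. The cDC1 arrays were WT numbers 23 and 26 and *Mbd2*-/- numbers 27, 28 and 30, and their values are given in that order throughout. The monocyte arrays were WT 1 to 5 and *Mbd2*-/- 6 to 10. All mice had received 2% dextran sulfate sodium (DSS), which injures the colon epithelium, so the comparison holds no untreated animal. The *Mbd2*-/- mice lacked the methyl-CpG-binding protein in every tissue and were littermates, housed with their WT controls where possible. Monocytes had been sorted as CD45+Ly6G-Siglec-F-CD11b+Ly6C+ cells and cDC1s as CD45+Ly6G-Siglec-F-CD11b-CD11c+CD103+ cells. Cells of several mice could be pooled in a replicate, 1 to 5 by the deposited record and more by the methods, so each array may average several animals, and the p-values measure the spread between these arrays.

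Messenger RNA was measured on Illumina MouseWG-6 BeadChips. Mean raw probe intensity ran from 172 to 292 on the cDC1 arrays and from 235 to 353 on the monocyte arrays, and 16383 to 17635 probes were detected on the cDC1 arrays against 16024 to 17876 on the monocyte arrays. Values below are log2 normalized intensities unless a fold is named. On that scale every array had its highest value at 14.14, and the lowest signal of a probe above background lay between 4.55 and 4.69. A fold change is cDC1 minus monocyte on the log2 scale from a limma model with genotype as covariate, with its standard error (SE) and a p adjusted over all 17552 probes tested. The arrays fell apart by cell type over the probes tested, with a pairwise Pearson r of 0.928 to 0.974 among the cDC1 arrays, 0.963 to 0.986 among the monocyte arrays and 0.845 to 0.902 between them. These are bulk samples, in which fewer cells of a type and less RNA per cell cannot be told apart.

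cDC1s are the dendritic cells that take up dead cells and present their antigens on MHC class I to CD8+ T cells. They depend on the transcription factors IRF8 and BATF3, carry the chemokine receptor XCR1 and the dead-cell receptor CLEC9A, and in the gut carry the integrin CD103. Ly6C+ monocytes leave the blood through CCR2, enter the inflamed lamina propria, release cytokines and mature there into macrophages under CSF1.

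The genes of the sorting antigens served as a check of the labels. *Itgae*, which encodes CD103, read 13.06, 13.19, 13.17, 12.90 and 12.94 on the cDC1 arrays and 6.69 to 8.36 (median 7.49) on the monocyte arrays. *Ly6c1* read 8.72 to 10.09 on the cDC1 arrays and 11.60 to 12.85 on the monocyte arrays. *Itgam*, which encodes CD11b, was undetected on the 5 cDC1 arrays and detected on 9 of the 10 monocyte arrays, where it was dim (4.47 to 5.83), so that the bound on its difference was at least 1.39-fold. Each of these stood on the side its sort gate gives. *Itgax*, which encodes CD11c, overlapped between the cell types (6.96 to 8.66 against 6.03 to 7.07), and *Ptprc* (CD45) differed by -0.38 (SE 0.22, adjusted p = 0.16). *Ly6c2* and *Ly6g* were not analysed here.

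Of 12388 genes tested, 981 were called higher in cDC1s (7.92%) and 1147 lower (9.26%), a call needing both an adjusted p under 0.05 and a log2 difference of 1 or more in size. Within WT arrays alone 2191 genes were called (17.7%), 8.34% higher and 9.35% lower, and within *Mbd2*-/- arrays alone 2263 (18.3%), 8.81% higher and 9.46% lower. A gene was taken as consistent where it was called with genotype as covariate and called in the same direction within both genotypes: 683 genes were consistently higher in cDC1s (5.51%) and 872 consistently lower (7.04%), together 73.1% of those called. Within *Mbd2*-/- mice the cell types also differed in array position in the deposited table, as described with the interaction. Of the 2128 genes called, 2127 had the same sign in both genotypes, and 0 genes were called in opposite directions. For 654 of the consistently higher genes (5.28% of genes tested) and 827 of the consistently lower genes (6.68%) the 5 cDC1 and the 10 monocyte arrays did not overlap. The balance of higher against lower genes depended on the scaling. Quantile normalization left the median of all genes at -0.02 and 46.1% of called genes higher in cDC1s, whereas scaling each array to its median left it at -0.317, with 504 genes called higher, 2020 lower and 20.0% higher.

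**Figure D1:**
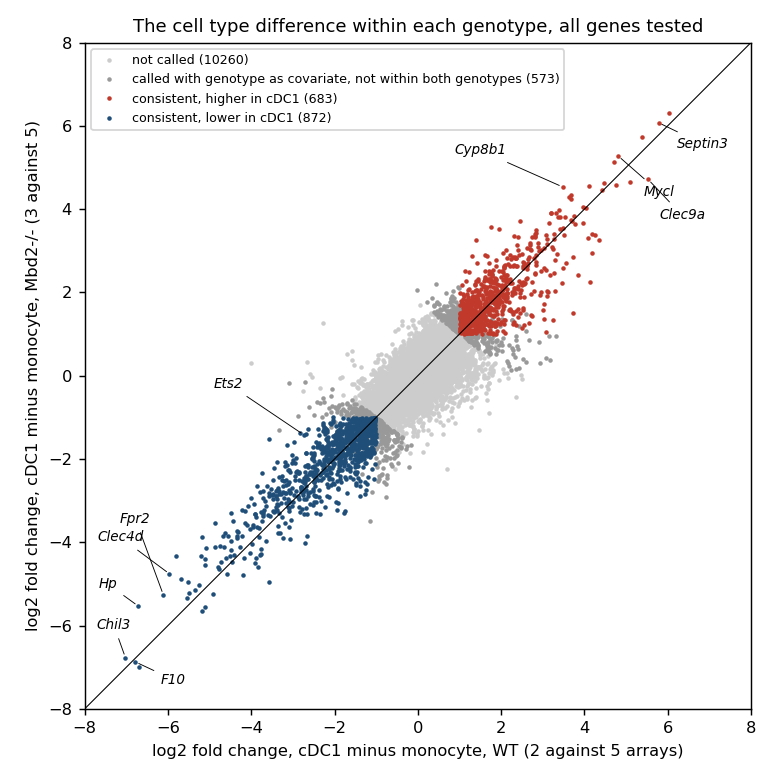
Each point is 1 of the 12388 genes tested, plotted by its cDC1 minus monocyte log2 fold change within WT arrays (horizontal, 2 against 5 arrays) and within *Mbd2*-/- arrays (vertical, 3 against 5), with the line of equality; colours mark the 683 genes consistently higher in cDC1s, the 872 consistently lower, the 573 called genes not called within both genotypes and the genes not called. The coloured genes lie along the line, from *Chil3* (-7.02 within WT, -6.77 within *Mbd2*-/-) to *Septin3* (5.78 and 6.08), while *Ets2* and *Cyp8b1* lie above it.

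The plot of one genotype's cell type difference against the other's shows that the large differences were of similar size in both. The genes described below were grouped by role in lists. A probe needed detection on 5 of the 15 arrays to be tested. A gene seen on cDC1 arrays alone thus needed all 5 of them, and one seen on monocyte arrays alone 5 of 10. Members could enter through the cell type in which they were high, so the counts describe the tested members only. Each list count is to be read against the shares of all genes, 7.92% higher and 9.26% lower in cDC1s.

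Most genes of cDC1 surface receptors and effectors were higher in cDC1s. Of 27 listed, 21 were tested, and 17 were higher in cDC1s, 0 lower and 4 not called, against 7.92% higher among all genes. The median fold change of the tested members was 2.52, against -0.02 over all genes. *Xcr1*, the receptor for the chemokine XCL1, read 8.64, 7.88, 8.10, 7.87 and 8.09 on the cDC1 arrays and 4.22 to 4.68 (median 4.43) on the monocyte arrays, where it was above background on 1 of 10 (3.71, SE 0.12, adjusted p = 6.55e-13). *Clec9a*, which binds actin exposed by dead cells, read 10.86, 11.08, 10.95, 10.21 and 10.49 against 4.74 to 6.21 (median 5.74), a fold change of 5.07 (SE 0.20, adjusted p = 5.39e-12). The cell types did not overlap for either gene. *Cadm1*, an adhesion molecule, read 9.54 to 10.22 on the cDC1 arrays and 5.43 to 6.43 on the monocyte arrays (4.04, SE 0.14, adjusted p = 1.07e-12). *Btla*, an inhibitory receptor, read 10.41 to 11.20 against 5.52 to 6.77 (4.57, SE 0.12, adjusted p = 1.36e-13). Both were separated by more than 3 log2 units, though *Cadm1* was also bright in the colon macrophages of the series, with a mean of 9.20.

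Receptors for nucleic acid and microbial protein were part of the same group. *Tlr11*, an endosomal receptor for microbial profilin, read 8.79, 8.68, 9.04, 8.25 and 8.19 on the cDC1 arrays and 4.37 to 5.36 (median 4.61) on the monocyte arrays (3.76, SE 0.18, adjusted p = 5.93e-11). Its partner *Tlr12* read 6.94, 7.93, 8.17, 8.00 and 8.10 against 4.65 to 6.36 (median 5.23), a difference of 2.47 (SE 0.17, adjusted p = 4.48e-09). *Tlr3*, the receptor for double-stranded RNA, read 6.30, 6.64, 7.08, 6.79 and 6.86 against 4.32 to 5.04 (median 4.52), a difference of 2.12 (SE 0.10, adjusted p = 2.70e-11). For the 3 receptors every cDC1 array lay above every monocyte array, and array 23 was the lowest cDC1 array for *Tlr12* and *Tlr3*. *Gpr33*, a receptor of the chemoattractant family, read 8.87 to 9.77 on the cDC1 arrays and 4.38 to 5.29 on the monocyte arrays (4.65, SE 0.17, adjusted p = 3.09e-12).

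**Figure D2:**
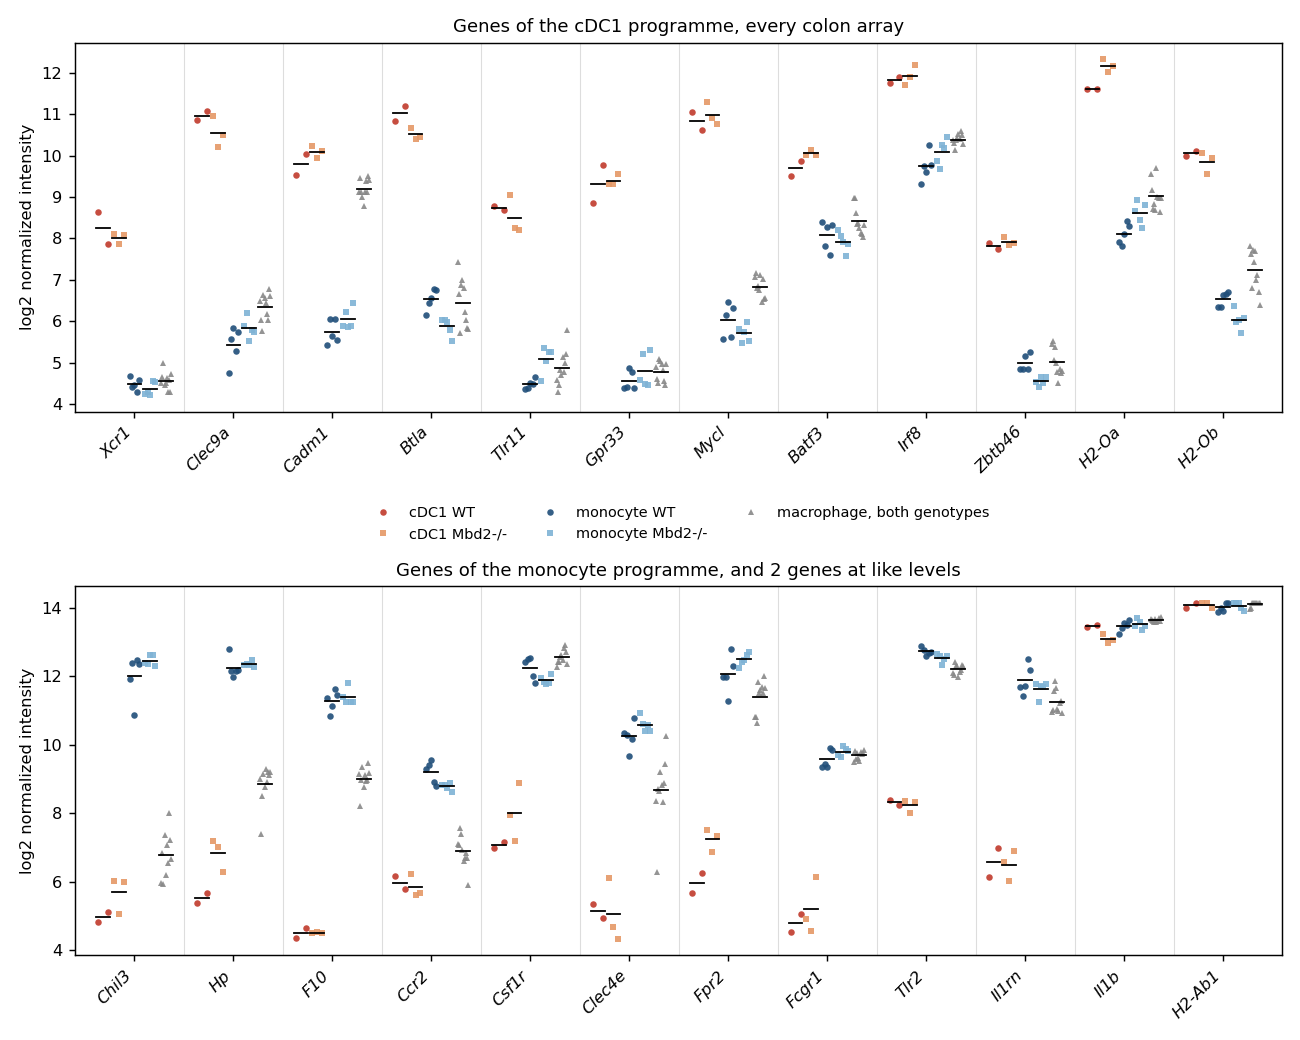
Log2 normalized intensity (vertical) of 24 genes on each of the 25 colon arrays, by cell type and genotype, with each group's mean as a bar; the upper panel holds genes of the cDC1 programme and the lower panel genes of the monocyte programme and *Il1b* and *H2-Ab1*. The cDC1 arrays lie above every monocyte array for the 12 genes of the upper panel and below every monocyte array for the first 10 genes of the lower panel, and they overlap the monocytes' range for *Il1b* and *H2-Ab1*.

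The plot by array shows that the genes picked for its upper panel did not overlap between the cell types in either genotype. Over the lists, 7 of 15 tested lineage factors and 17 of 21 tested receptors and effectors were higher without overlap, against 14.5% of all genes. The intracellular members of the receptor and effector list had a median fold change of 1.93, against 3.76 for the surface receptors. *Septin3*, a cytoskeletal septin, had the largest of them, with 10.92 to 11.27 on the cDC1 arrays against 4.45 to 5.72 on the monocyte arrays (5.95, SE 0.18, adjusted p = 4.44e-13). *Gcsam*, a signalling adaptor, had a fold change of 3.80 and *Snx22*, a sorting nexin, one of 4.02, with the monocyte side above background on 4 and 2 of 10 arrays. *Naaa*, a lysosomal amidase, differed by 1.93, and *Rab7b*, a GTPase of endosomal transport, by 1.47. *Ppt1*, a lysosomal thioesterase, differed by 2.43 and was highest on array 23 (12.23 against 10.91 to 11.26 on the other cDC1 arrays). The 4 members not called were *Cd226* (0.81, adjusted p = 0.0093), *Ifi205*, *Fgd6* and *Slamf8*, whose fold changes were under 1. A second probe of *Cd226* gave 1.63, and 1 of the 3 probes of *Ifi205* reached 2.37, so these lacked a call on the brightest probe alone. *Clnk* was called (1.10) but not within *Mbd2*-/-. It was undetected on every monocyte array, which bounds its difference at 1.66-fold or more. *Cd8a*, *Ly75*, *Cd36*, *Hepacam2* and *Plekha5* were too dim to be tested.

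The start regions of 2 of these receptor genes are shown because each holds a match to a motif of the IRF family, to which IRF8 belongs. They are the 250 bases before the RefSeq start of *Tlr11* (GRCm38.p6, chr14:50357664-50357913, plus strand) and of *Gpr33* (chr12:52028064-52028313, minus strand), read 5′ to 3′ along the gene. Capitals mark a tandem IRF motif (GAAA, any 2 bases, GAAA) in *Tlr11*, and a joint Ets and IRF motif (GGAA, any 2 bases, GAAA) in *Gpr33*.
Tlr11: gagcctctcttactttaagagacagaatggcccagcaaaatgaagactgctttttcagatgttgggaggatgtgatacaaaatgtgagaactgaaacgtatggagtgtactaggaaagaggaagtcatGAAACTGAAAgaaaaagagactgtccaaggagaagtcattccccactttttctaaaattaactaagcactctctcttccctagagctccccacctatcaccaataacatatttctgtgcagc
Gpr33: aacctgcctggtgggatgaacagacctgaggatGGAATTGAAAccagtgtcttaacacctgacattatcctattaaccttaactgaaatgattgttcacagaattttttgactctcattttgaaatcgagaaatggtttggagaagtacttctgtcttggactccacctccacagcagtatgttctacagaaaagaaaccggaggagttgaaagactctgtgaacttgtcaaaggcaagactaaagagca
The match began 122 bases before the start in *Tlr11* and 217 bases before it in *Gpr33*. A match describes the letters and is no evidence of binding, and the genes shown were chosen after their matches were seen. Promoters from 250 bases before to 50 after the start were found for 8546 of the genes tested. On either strand, the tandem IRF motif was held by 3.19% of them and by 3.08% of the 487 promoters of consistently higher genes, and the joint motif by 2.55% and 1.85%. The share of cDC1 genes with either motif was thus no greater than that of all genes.

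The dendritic cell lineage factors gave 6 of 15 tested members higher in cDC1s and 1 lower, with a median of 0.69. *Mycl*, a MYC-family transcription factor, read 11.04, 10.63, 11.30, 10.92 and 10.75 on the cDC1 arrays and 5.48 to 6.46 (median 5.78) on the monocyte arrays (5.08, SE 0.17, adjusted p = 8.51e-13). *Zbtb46*, a factor of conventional dendritic cells, read 7.74 to 8.05 against 4.42 to 5.26 (3.13, SE 0.12, adjusted p = 2.53e-12). In monocytes *Zbtb46* was close to the floor of the scale, the lowest signal above background, and was above background on 6 of 10 arrays, while *Mycl* was on all 10. *Irf8* and *Batf3* were well above the floor in both cell types. *Irf8* read 11.75, 11.90, 11.70, 11.90 and 12.20 against 9.32 to 10.46 (median 9.82), a difference of 1.95 (SE 0.15, adjusted p = 2.18e-08). *Batf3* read 9.51, 9.88, 10.02, 10.12 and 10.01 against 7.57 to 8.40 (median 7.99), a difference of 1.91 (SE 0.15, adjusted p = 2.85e-08). Neither overlapped between the cell types. *Kit*, the receptor for stem cell factor, was higher by 3.00 (SE 0.18) and *Bcl11a*, a zinc-finger factor, by 1.32 (SE 0.13), with its second probe at 0.74 and not called. *Id2*, a regulator that cDC1s need, differed by 0.69 (SE 0.16, adjusted p = 0.00184) and missed the fold limit. *Flt3*, the receptor of the dendritic cell growth factor FLT3L, was at the floor in both cell types on this probe (4.40 to 4.68 and 4.22 to 4.76). The lower member was *Csf2rb*, the shared receptor chain for GM-CSF, with -1.26 (SE 0.30, adjusted p = 0.00184) and overlapping arrays, and 2 of its 3 probes were not called.

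The genes with the widest consistent separation on the cDC1 side, beyond those above, were a mixed set. They were taken as the 15 largest fold changes among consistent genes without overlap. *Itgae*, the sort antigen, was among them, and so was a probe with no gene name in the sources used here (6.20). *Wdr86*, a WD-repeat protein, read 9.37 to 9.98 on the cDC1 arrays and 4.42 to 5.17 on the monocyte arrays (4.96, SE 0.13, adjusted p = 1.20e-13). *Sema4f*, a semaphorin, read 8.63 to 8.99 against 4.27 to 4.80 (4.45, SE 0.09, adjusted p = 7.79e-15). In both the cDC1 arrays lay within 0.7 of each other. *Rtl8c*, a retrotransposon-derived gene, differed by 4.85, and *Tnni2*, a troponin of fast muscle, by 4.36. *Cyp8b1*, an enzyme of bile acid synthesis in liver, differed by 4.08. On the monocyte side *Sema4f* and *Cyp8b1* were above background on 2 of 10 arrays each, *Rtl8c* on 5 and *Wdr86* on 8, so the sizes of these differences depend on the floor. *Asb2*, a ubiquitin ligase subunit, differed by 4.06, and its macrophage mean of 9.56 was nearer to the cDC1 range (10.33 to 11.16) than to that of monocytes (6.15 to 7.08).

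Antigen presentation genes split by role. On their brightest probes the classical MHC class II chains were at like levels near the top of the scale: *H2-Ab1* read 14.00, 14.14, 14.14, 14.14 and 14.00 on the cDC1 arrays and 13.87 to 14.14 (median 14.07) on the monocyte arrays (0.04, SE 0.08, adjusted p = 0.697). *Cd74*, the invariant chain, differed by 0.02 (SE 0.08, adjusted p = 0.83) and *H2-Eb1* by 0.11 (SE 0.08, adjusted p = 0.263). Less bright probes read higher in cDC1s under the fold limit, with 0.55 for *Cd74* (adjusted p = 0.000488) and 0.56 and 0.23 for *H2-Ab1* (adjusted p = 0.0356 and 0.0198), while a further probe of *Cd74* gave 0.11. After quantile normalization every array had the same highest value, 14.14, which the brightest of these probes reached or came near. Whether this hid a difference was not tested. The chains of H2-O, which restrains peptide loading by H2-DM, stood apart. *H2-Ob* read 9.99, 10.12, 10.07, 9.55 and 9.95 on the cDC1 arrays and 5.71 to 6.70 (median 6.35) on the monocyte arrays (3.69, SE 0.12, adjusted p = 8.15e-13). *H2-Oa* read 11.61, 11.60, 12.32, 12.01 and 12.16 against 7.81 to 8.93 (median 8.36), a difference of 3.53 (SE 0.13, adjusted p = 1.78e-12). Neither gene overlapped, and the differences were 12.9-fold and 11.5-fold. *Ciita*, the master activator of class II genes, was higher by 1.50 (SE 0.18, adjusted p = 2.75e-06) and *H2-Eb2* by 2.18 (SE 0.32, adjusted p = 2.98e-05), each with 1 further probe not called. *H2-DMb2* differed by 0.56 on its brightest probe and by 3.94 on its other, so its difference is uncertain. *Lgmn*, an endosomal protease, was lower (-2.22, SE 0.13, adjusted p = 4.46e-10), at 9.52 to 10.58 against 12.08 to 12.76. In all, 4 of 15 class II members were higher and 1 lower.

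Among 18 tested genes of class I presentation, 4 were higher in cDC1s and 0 lower. The class I chains themselves were not called, with *B2m*, the light chain, at 0.14 (adjusted p = 0.153) and H2-K1 at -0.06 (adjusted p = 0.756). The 4 higher genes serve peptide supply and loading. *Psmb8*, an immunoproteasome subunit, read 12.12 to 12.47 on the cDC1 arrays and 8.75 to 11.50 (median 10.36) on the monocyte arrays (2.01, SE 0.35, adjusted p = 0.000138). *Psme2*, a proteasome activator, was higher by 1.39 (SE 0.15) and *Calr*, a chaperone of peptide loading, by 1.56 (SE 0.29). *Psmb9*, a further subunit, was higher by 1.03 (SE 0.14) but fell below the fold limit without any 1 of arrays 23, 26 or monocyte array 3. *Psme2* and *Psmb9* lost their calls under median scaling (0.83 and 0.57). *Tap1*, the peptide transporter, overlapped between the cell types (0.33, adjusted p = 0.128).

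Cell cycle genes were higher in cDC1s as a group. Of 28 tested, 22 were higher and consistent in both genotypes and 0 lower, with a median of 2.19, and for 27 the arrays of the cell types did not overlap (14.5% of all genes were above without overlap). Both replication and mitosis genes were among them, 10 of 13 and 12 of 15. *Top2a*, the mitotic topoisomerase, read 8.95, 9.36, 8.35, 8.39 and 8.20 on the cDC1 arrays and 5.06 to 5.88 (median 5.37) on the monocyte arrays (3.23, SE 0.18, adjusted p = 3.50e-10). *Mcm5*, of the replicative helicase, read 10.15, 10.66, 10.59, 10.53 and 10.75 against 7.42 to 8.09 (median 7.56), a difference of 2.89 (SE 0.13, adjusted p = 2.29e-11). *Cdk1*, the mitotic kinase, read 8.41, 8.51, 8.20, 8.08 and 8.27 against 4.55 to 5.56 (median 5.31), a difference of 3.09 (SE 0.15, adjusted p = 6.43e-11). The gap between the cell types was at least 2 log2 units in these 3 genes. *Birc5* (3.05), *Nusap1* (3.15) and *Stmn1* (3.21), which act in mitosis or on microtubules, behaved alike. *Mki67* and *Pcna*, known markers of cycling cells, did not overlap but missed the fold limit, with 0.80 (SE 0.18, adjusted p = 0.00118) and 0.93 (SE 0.20, adjusted p = 0.00118).

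Migration and maturation genes were mixed, with 5 of 24 tested higher in cDC1s and 6 lower, against 7.92% higher and 9.26% lower among all genes. *Ccr7*, the receptor that guides dendritic cells to lymph nodes, read 9.35, 10.44, 9.89, 9.54 and 11.15 on the cDC1 arrays and 8.04 to 9.02 (median 8.32) on the monocyte arrays (1.67, SE 0.25, adjusted p = 2.61e-05). *Fscn1*, which bundles actin in mature dendritic cells, read 7.28, 9.70, 9.60, 8.87 and 11.10 against 5.92 to 7.53 (median 6.36), a difference of 2.79 (SE 0.45, adjusted p = 7.12e-05). *Ccl17*, a chemokine for T cells, read 7.16, 10.02, 8.77, 8.15 and 9.42 against 5.66 to 7.94 (median 5.91), a difference of 2.56 (SE 0.41, adjusted p = 6.52e-05). Array 23 was the lowest cDC1 array for the 3 genes and overlapped the monocyte arrays for *Fscn1* and *Ccl17*, and array 26 or 30 was the highest. *Cacnb3* (2.14, with its second probe at 0.94 and not called) and *Cd200* (1.11) were the other higher members. *Cd40*, a costimulatory receptor, was lower (-1.66, SE 0.23, adjusted p = 1.63e-05), as were *Il15* (-1.59), its receptor chain *Il15ra* (-1.44), *Il27* (-1.62), *Marcksl1* (-2.62) and *Cd274*, the ligand of PD-1 (-1.09). For *Marcksl1* only 1 of its 4 probes was called, with the others at -0.65, -0.41 and -0.37. *Il27* and *Cd274* were not called within WT, and the call of *Cd274* was lost without array 23 (-0.97) or array 28 (-0.96). *Cd86*, a costimulatory ligand, was at like levels on its brightest probe (-0.22, adjusted p = 0.213), with 1 of its 3 probes at -1.08. *Cd80* likewise had no call (-0.36, adjusted p = 0.258).

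Among 13 homing receptors and integrins, 2 were higher and 5 lower, against 7.92% higher and 9.26% lower among all genes. *Cxcr3*, a receptor for interferon-induced chemokines, read 9.71, 8.40, 9.29, 9.04 and 8.66 on the cDC1 arrays and 4.67 to 6.34 (median 5.50) on the monocyte arrays (3.64, SE 0.22, adjusted p = 1.06e-09). *Itgb7*, which pairs with CD103, was even over the cDC1 arrays at 11.81 to 11.97 against 10.31 to 11.07 (1.27, SE 0.10, adjusted p = 1.64e-08), and its call was lost under median scaling (0.66). *Itga5*, of the fibronectin receptor, was the lowest member (-3.18, SE 0.18, adjusted p = 5.22e-10), at 5.81 to 6.77 against 9.11 to 10.12. *Cxcr4*, a chemokine receptor, was lower too (-1.35, SE 0.16). *Itgb5*, *Itgal* and *Itgav* were the other lower members, and the count fell to 3 without monocyte array 4 or cDC1 array 28. *Itgb8* and *Ccr9*, and *Ccl22* of the migration list, were too dim to be tested.

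On the monocyte side, surface receptors formed a uniform group. Of 28 tested members 24 were lower in cDC1s, 23 of them in both genotypes, and 0 were higher, against 9.26% lower among all genes, with a median of -2.99. *Ccr2*, through which monocytes leave the blood, read 6.16, 5.79, 6.24, 5.61 and 5.68 on the cDC1 arrays and 8.61 to 9.55 (median 8.87) on the monocyte arrays (-3.06, SE 0.14, adjusted p = 3.54e-11). *Csf1r*, the receptor for the growth factor of macrophages, read 6.99, 7.15, 7.96, 7.20 and 8.89 against 11.77 to 12.53 (median 11.98), a difference of -4.44 (SE 0.26, adjusted p = 6.21e-10). *Cd14*, the co-receptor for lipopolysaccharide, read 9.98, 10.21, 10.61, 10.08 and 10.03 against 13.43 to 13.80 (median 13.62), a difference of -3.45 (SE 0.11, adjusted p = 4.97e-13). The groups were apart by 2 to 3 log2 units for each gene, and array 30 was the highest cDC1 array for *Csf1r*, as it was for *Cx3cr1* (6.17, the others 4.41 to 5.39). *Fpr2*, a receptor for formyl peptides, differed by -5.63 (SE 0.22), *Csf3r*, the G-CSF receptor, by -4.55 (SE 0.16), and *Ms4a6d* by -4.59 (SE 0.12). *Cd300lf* was called with genotype as covariate (-1.40) and not within WT. *Fpr1* (-0.94) and *Treml4* (-0.75) were among the 4 not called, and *Ccr1* and *Ms4a4c* were too dim to be tested.

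Secreted and granule proteins held the largest differences of all. Of 25 tested, 21 were lower in cDC1s, 18 of them in both genotypes, and 0 higher, with a median of -2.69. *Chil3*, a chitinase-like protein of monocytes, read 4.83, 5.13, 6.02, 5.05 and 6.00 on the cDC1 arrays and 10.88 to 12.64 (median 12.37) on the monocyte arrays (-6.88, SE 0.23, adjusted p = 9.24e-13), a 118-fold difference. Its near-identical relative *Chil4* differed by -6.86 (SE 0.25), and the probes of the pair may not tell them apart. *F10*, coagulation factor X, read 4.37, 4.64, 4.51, 4.53 and 4.51 against 10.84 to 11.81 (median 11.32), a difference of -6.83 (SE 0.13, adjusted p = 3.28e-15), but it was above background on 1 of 5 cDC1 arrays, so the size of that difference depends on the floor. *Hp*, the haemoglobin-binding protein haptoglobin, read 5.39, 5.66, 7.19, 7.00 and 6.30 against 11.97 to 12.79 (median 12.30), a difference of -6.04 (SE 0.21, adjusted p = 1.20e-12). For *Chil3*, *F10* and *Hp* the closest arrays of the cell types were more than 4 log2 units apart, and the macrophage means (6.78, 9.02 and 8.85) lay between. *F13a1*, a clotting factor subunit, differed by -5.33 (SE 0.21). *S100a8* and *S100a9*, alarmins of neutrophils and monocytes, were lower (-2.79 and -2.57) with cDC1 array 27 overlapping the monocyte arrays. *Vcan*, a matrix proteoglycan, was undetected on every cDC1 array and was at least 8.40-fold lower there. *Lyz2*, a lysozyme of myeloid cells, differed by -1.48 (SE 0.30) and was not called within WT, while its close relative *Lyz1* differed by -0.34 and had no call on its brightest probe. With the position of the arrays in the table as a block, the difference of *Lyz2* was -0.49. In that fit the cell type difference rests on cDC1 arrays 23 and 26, both WT, so position cannot be told apart from genotype or single arrays.

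Fc receptors and complement genes gave 10 of 13 tested members lower and 0 higher, with a median of -2.84. All 5 Fc receptor genes listed were lower. *Fcgr1*, the high-affinity receptor CD64, read 4.52, 5.05, 4.92, 4.56 and 6.15 on the cDC1 arrays and 9.35 to 9.97 (median 9.76) on the monocyte arrays (-4.68, SE 0.20, adjusted p = 1.61e-11). *Fcgr4*, a receptor for IgG, read 8.49, 8.52, 9.44, 9.16 and 9.83 against 12.68 to 13.31 (median 13.09), a difference of -3.99 (SE 0.14, adjusted p = 1.69e-12). Array 30 was the highest cDC1 array for both, as it was for *C1qa* (9.50, the others 7.47 to 8.09) and *C1qb* (10.30, the others 8.66 to 9.65). *C1qb*, a chain of the first complement component, differed by -3.30 (SE 0.18, adjusted p = 2.22e-10). *C3*, the central complement protein, differed by -1.70 (SE 0.26), and array 28 at 11.85 lay in the monocyte range while the other cDC1 arrays read 9.66 to 10.11. *C3ar1* and *C5ar1* were too dim to be tested.

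Toll-like receptors divided between the cell types. Of the 9 not counted with the cDC1 genes, 7 were lower in cDC1s (*Tlr1*, *Tlr2*, *Tlr4*, *Tlr5*, *Tlr6*, *Tlr7* and *Tlr13*) and *Tlr8* and *Tlr9* were not called. *Tlr2*, which senses bacterial lipoproteins, read 8.40, 8.25, 8.36, 8.01 and 8.33 on the cDC1 arrays and 12.33 to 12.89 (median 12.63) on the monocyte arrays (-4.34, SE 0.09, adjusted p = 5.79e-15). *Tlr6*, its partner, read 5.15, 5.72, 6.10, 6.06 and 5.97 against 9.44 to 9.82 (median 9.56), a difference of -3.82 (SE 0.12, adjusted p = 4.97e-13). *Tlr7*, a receptor for single-stranded RNA, read 4.71, 5.04, 5.55, 5.10 and 6.02 against 9.27 to 9.65 (median 9.37), a difference of -4.16 (SE 0.16, adjusted p = 3.13e-12). None of the 3 overlapped, and the spread of the monocyte arrays was under 0.6 in each. *Tlr4*, the lipopolysaccharide receptor, and *Tlr5*, the flagellin receptor, both differed by -2.57 (SE 0.14 and 0.13). *Tlr8* and *Tlr9* were at the floor of the scale on most arrays, which leaves their difference undetectable here. The signalling adaptor *Myd88* differed by -0.61 (SE 0.08, adjusted p = 1.04e-05), under the fold limit, and was called under median scaling (-1.25). *Unc93b1*, which carries endosomal receptors, differed by -0.35. *Ly96*, which helps TLR4 bind lipopolysaccharide, was lower (-2.24), as was the adaptor *Ticam2* (-2.58). Of the cytosolic sensors, *Nod1* (-2.90, SE 0.15), *Nlrc4* (-2.19) and *Nod2* (-1.03, not called within *Mbd2*-/-) were lower. In the pattern recognition list, which leaves out *Tlr3*, *Tlr11* and *Tlr12*, 12 of 19 genes were lower and 0 higher, with a median of -2.19.

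**Figure D3:**
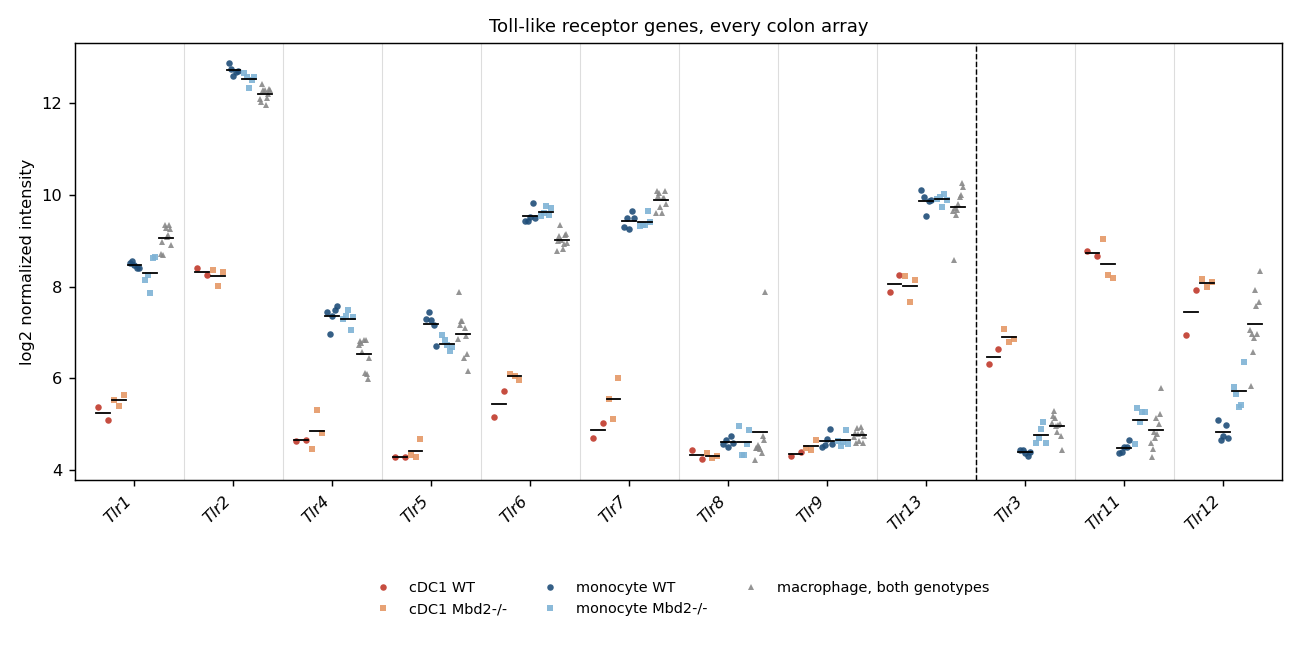
Log2 normalized intensity (vertical) of 12 Toll-like receptor genes on each of the 25 colon arrays, by cell type and genotype, with each group's mean as a bar and a dashed line before the 3 receptors listed with the cDC1 genes. The cDC1 arrays lie below every monocyte array for *Tlr1*, *Tlr2*, *Tlr4*, *Tlr5*, *Tlr6*, *Tlr7* and *Tlr13* and above every monocyte array for *Tlr3*, *Tlr11* and *Tlr12*, while *Tlr8* and *Tlr9* stay under 5 in cDC1s and monocytes.

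The plot of the receptors shows the macrophage arrays on the monocyte side for the genes lower in cDC1s, with means of 12.20 for *Tlr2* and 9.88 for *Tlr7*. The start regions of 3 genes of the monocyte side are shown because they hold matches to motifs of myeloid factors: *Fcgr4* (GRCm38.p6, chr1:171018676-171018925, plus strand), *Tlr6* (chr5:64959167-64959416, minus strand) and *Clec4e*, whose values follow (chr6:123289872-123290121, minus strand). Each is the 250 bases before the RefSeq start, 5′ to 3′ along the gene. Capitals mark the tandem IRF motif in *Fcgr4*, a pair of overlapping matches to it on the opposite strand in *Tlr6*, and TTGCNNAA, the C/EBP motif, likewise on the opposite strand in *Clec4e*.
Fcgr4: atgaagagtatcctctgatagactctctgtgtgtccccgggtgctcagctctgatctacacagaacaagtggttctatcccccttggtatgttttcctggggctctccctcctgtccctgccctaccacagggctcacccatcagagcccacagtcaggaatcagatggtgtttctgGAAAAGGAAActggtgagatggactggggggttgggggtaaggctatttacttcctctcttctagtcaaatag
Tlr6: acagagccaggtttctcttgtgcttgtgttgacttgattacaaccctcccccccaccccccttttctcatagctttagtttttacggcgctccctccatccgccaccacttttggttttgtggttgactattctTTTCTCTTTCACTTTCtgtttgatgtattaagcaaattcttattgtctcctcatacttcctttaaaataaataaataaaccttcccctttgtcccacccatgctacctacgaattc
Clec4e: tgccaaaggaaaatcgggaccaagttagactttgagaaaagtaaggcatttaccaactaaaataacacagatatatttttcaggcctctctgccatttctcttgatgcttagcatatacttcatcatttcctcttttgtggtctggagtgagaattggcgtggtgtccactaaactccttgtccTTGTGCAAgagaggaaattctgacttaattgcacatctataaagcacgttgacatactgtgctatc
The matches began 73 bases before the start in *Fcgr4*, 116 bases before it in *Tlr6* (the first of the pair) and 66 bases before it in *Clec4e*. The tandem IRF motif was held by 7.04% of the 639 promoters found for consistently lower genes, against 3.19% of all promoters and 3.08% of those of consistently higher genes. TTGCNNAA was held by 12.8%, 8.28% and 7.60% in the same order. The AP-1 motif TGANTCA was held by 6.42%, 5.21% and 4.31%, and the Runx motif TGTGGT by 13.1%, 13.0% and 12.1%. The motifs were searched on both strands. These shares are descriptions and were not tested.

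C-type lectin and Trem receptors were among the 15 widest differences on the monocyte side. *Clec4e*, the receptor Mincle for damaged cells and mycobacterial lipid, read 5.36, 4.93, 6.12, 4.68 and 4.34 on the cDC1 arrays and 9.67 to 10.94 (median 10.41) on the monocyte arrays (-5.36, SE 0.24, adjusted p = 2.63e-11). Its neighbour *Clec4d* read 5.99 to 7.19 against 11.35 to 12.20 (-5.28, SE 0.19, adjusted p = 2.58e-12). Neither overlapped, and *Clec4d* was higher on the *Mbd2*-/- than on the WT cDC1 arrays. *Clec4a3* differed by -5.20 (SE 0.16) and *Trem3* by -5.12 (SE 0.11). *Arg2*, an arginase, differed by -5.42 (SE 0.15), *Gab1*, a signalling adaptor, by -5.24 (SE 0.20), and *Gpr84*, a receptor for fatty acids, by -5.11 (SE 0.23). *Clec4e* was above background on 4 and *Gpr84* on 3 of the 5 cDC1 arrays.

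Most cytokine genes were lower in cDC1s. Of 24 cytokines and mediators tested, 17 were lower, 15 of them in both genotypes, and 0 higher, with a median of -1.48. The 7 not called were *Il1b*, *Il18* (-0.75), *Tnfsf13b* (-0.90), *Spp1* (-0.20), *Ptgs1* (-0.69), *Alox5* (-0.95) and *Alox5ap* (-0.04). *Il1b*, the pro-inflammatory cytokine that drives colitis, read 13.43, 13.50, 13.25, 12.96 and 13.07 on the cDC1 arrays and 13.24 to 13.69 (median 13.49) on the monocyte arrays (-0.25, SE 0.10, adjusted p = 0.0561). The cell types overlapped near the top of the scale, with arrays 28 and 30 below every monocyte array. Its relative *Il1a* read 5.71, 6.38, 6.44, 5.07 and 6.75 against 9.20 to 11.09 (median 10.19), a difference of -4.16 (SE 0.29, adjusted p = 5.21e-09). The receptor antagonist *Il1rn* read 6.15, 6.97, 6.57, 6.03 and 6.89 against 11.24 to 12.49 (median 11.72), a difference of -5.23 (SE 0.19, adjusted p = 2.48e-12). Neither of these overlapped. *Il10*, an anti-inflammatory cytokine, read 6.11 to 6.87 against 9.73 to 10.41 (-3.49, SE 0.13, adjusted p = 4.02e-12), and *Tnf* read 6.74 to 7.69 against 9.44 to 11.08 (-3.02, SE 0.24, adjusted p = 2.44e-08). *Osm*, of the IL-6 family, differed by -4.21 (SE 0.24), *Il23a* by -2.34 (SE 0.22) and *Il6* by -1.42 (SE 0.20). *Il12a*, a chain of IL-12, and *Ifnb1* were undetected on every cDC1 array, with bounds of at least 5.87-fold and 2.60-fold. *Inhba*, which encodes the activin A subunit and was among the widest differences, was likewise undetected there and was at least 37.7-fold lower. *Il12b*, the chain that IL-12 and IL-23 share, was too dim to be tested.

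In the chemokine list 10 of 12 tested members were lower in cDC1s, 8 of them in both genotypes, and 0 higher, with a median of -1.58. That list leaves out *Ccl17*, which was higher and is counted with the migration genes. *Ccl9* differed by -4.71 (SE 0.20), *Ccl6* by -3.49 (SE 0.15) and the neutrophil chemokine *Cxcl2* by -2.88 (SE 0.16). *Ccl24*, which draws eosinophils, was undetected on every cDC1 array and was at least 6.92-fold lower. *Cxcl10*, an interferon-induced chemokine, read 7.75 to 9.46 against 8.47 to 11.95 and overlapped (-2.15, SE 0.38, adjusted p = 0.000164). *Ccl3* and *Cxcl9* were called with genotype as covariate (-1.34 and -1.05) and not within both genotypes. *Ccl4* (-0.30, adjusted p = 0.105) and *Cxcl12* (-0.41) were the members not called. *Ccl8* and *Ccl12* were not analysed here.

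Of 27 myeloid transcription factors tested, 9 were lower in cDC1s and 0 higher, with a median of -0.35. *Irf8*, *Batf3*, *Mycl* and *Zbtb46*, which were higher, are counted with the lineage factors instead. *Zeb2*, a repressor of the cDC1 fate, read 4.85, 5.03, 4.96, 4.59 and 4.32 on the cDC1 arrays and 8.11 to 9.55 (median 8.49) on the monocyte arrays (-3.84, SE 0.22, adjusted p = 3.97e-10), though its second probe (-0.84) was not called. *Cebpb*, a C/EBP factor of monocytes, read 10.04, 9.90, 10.33, 10.50 and 10.36 against 13.14 to 13.59 (median 13.41), a difference of -3.14 (SE 0.11, adjusted p = 1.78e-12). Neither overlapped. *Irf7*, an interferon regulatory factor, was lower (-1.77, SE 0.19). *Nfkbiz* (-1.77), *Bach1* (-1.59), *Fosl2* (-1.24) and *Ets2* (-1.99) were also lower in both genotypes, though the other probes of *Fosl2* (-0.52 and -0.13) were not called. *Spi1*, which encodes PU.1, differed by -0.93 (adjusted p = 0.000816) and *Klf4* by 0.36 (adjusted p = 0.102), and neither was called. The other probes of *Klf4* pointed the other way, at -1.11 (adjusted p = 0.00561, called lower) and -0.73 (adjusted p = 0.0859), so its difference is uncertain.

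**Figure D4:**
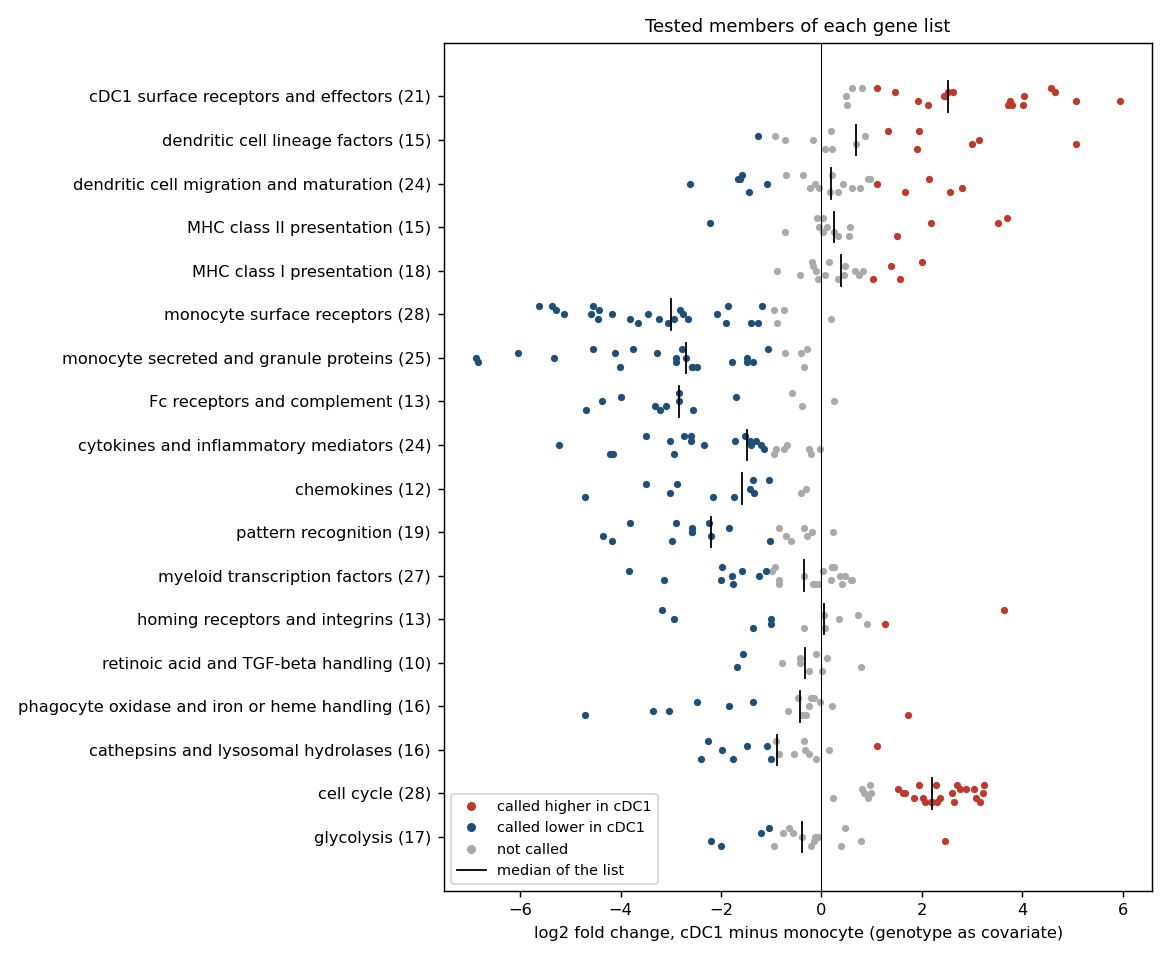
Cell type difference (horizontal, cDC1 minus monocyte log2 fold change) of each tested member of 18 gene lists (vertical, with the number tested), coloured by call, with the median of each list as a bar. The tested cDC1 receptors and effectors (median 2.52) and the cell cycle genes (median 2.19) lie to the right, the monocyte receptors (-2.99) and Fc receptor and complement genes (-2.84) to the left, and the MHC and transcription factor lists spread about 0.

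The plot of the lists shows that those of the monocyte side held 0 members called higher in cDC1s, while the lists of metabolism and phagocyte function were more mixed. That 0 depends on how genes were allotted, since *Ccl17*, the higher Toll-like receptors and the higher lineage factors stand in other lists. Of 16 genes of the oxidase and of iron and heme handling, 6 were lower and 1 was higher, against 9.26% lower and 7.92% higher among all genes. *Slc7a11*, the cystine transporter, read 4.32 to 5.69 on the cDC1 arrays and 9.24 to 10.43 on the monocyte arrays (-4.71, SE 0.23, adjusted p = 8.06e-11), with 1 of its 5 probes not called. *Hmox1*, which degrades heme, differed by -3.35 (SE 0.19), and *Slc11a1*, a metal transporter of phagosomes, by -3.04 (SE 0.12). *Hfe*, a regulator of iron uptake, was the higher member (1.73, SE 0.16, adjusted p = 1.04e-07), and *Fth1*, a ferritin chain, was at like levels near the top of the scale (-0.02, adjusted p = 0.833).

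Of 16 lysosomal genes 7 were lower and 1 higher, against 9.26% lower and 7.92% higher among all genes. *Lamp1*, a lysosomal membrane protein, read 10.15 to 10.46 on the cDC1 arrays and 12.27 to 12.70 on the monocyte arrays (-2.26, SE 0.09, adjusted p = 8.55e-12), and *Ctsc*, cathepsin C, differed by -1.97 (SE 0.07). *Gusb*, a lysosomal glucuronidase, was higher (1.10, SE 0.09), lost the call under median scaling (0.49) and had 1 of its 4 probes not called. In glycolysis, 4 of 17 were lower and 1 higher, the latter near the share among all genes. *Slc2a1*, the glucose transporter GLUT1, read 9.26 to 9.79 against 11.37 to 11.75 (4.00-fold lower in cDC1s, adjusted p = 4.52e-11), and the lactate exporter *Slc16a3* differed by -2.21 (SE 0.16). *Pfkp*, a phosphofructokinase, was the higher member and varied widely, at 11.43, 10.06, 10.13, 9.24 and 9.32 against 5.83 to 8.94 (2.47, SE 0.47, adjusted p = 0.000308). Of 10 genes of retinoic acid and TGF-beta handling, *Smad3* (-1.67) and *Tgfbr1* (-1.57) were lower. *Aldh1a2*, the retinaldehyde dehydrogenase of gut dendritic cells, was dim (4.65 to 5.87 against 4.33 to 5.12) and missed the fold limit (0.79, SE 0.15, adjusted p = 0.000303).

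Transcripts of other cell types differed between the cDC1 arrays. The summed linear intensity of 17 T cell, NK cell and intraepithelial lymphocyte markers ran from 2536 to 5950 on the cDC1 arrays and from 1160 to 1498 on the monocyte arrays, and 10 of 12 tested members were higher in cDC1s. The cDC1 sort as the methods list it names no T cell antigen, while the methods count myeloid populations among lineage-negative cells and state that the purity of the sorted cells was checked. *Cd3g*, a chain of the T cell receptor complex, read 10.16, 7.58, 8.25, 9.02 and 6.63 on the cDC1 arrays and 5.48 to 6.72 (median 5.78) on the monocyte arrays. *Mcpt1*, a protease of mucosal mast cells, read 9.39, 5.30, 4.56, 9.32 and 6.70 against 4.24 to 4.60 (median 4.32). Arrays 23 and 28 were the highest cDC1 arrays for *Cd3d*, *Cd3e*, *Cd3g*, *Lck* and *Mcpt1*, and *Cd3g* on array 30 overlapped the monocyte arrays. *Tbx21*, a factor of T and NK cells, read 5.94 to 6.71 against 4.28 to 5.15, and *Cd8b1* read 10.37 to 10.80 against 9.05 to 9.56. On these probes the 2 genes varied less over the cDC1 arrays than *Cd3g* did. The *Cd8b1* probe was bright in monocytes too (mean 9.31), and whether its signal is specific was not tested. Of the other *Cd8b1* probes, 1 differed by 3.40 (adjusted p = 2.06e-07), with means of 9.24 in cDC1s and 5.84 in monocytes, and 1 by 1.21. Their values by array were not examined. *Cd28* and *Gzmb* were detected on 0 of the 15 arrays. *Kit*, which mast cells also express, read 10.34 on array 23, 10.33 on array 28 and 10.60 to 11.05 on the other cDC1 arrays. The part of mast cell or lymphocyte RNA in *Kit* and in the cell cycle genes was not tested.

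**Figure D5:**
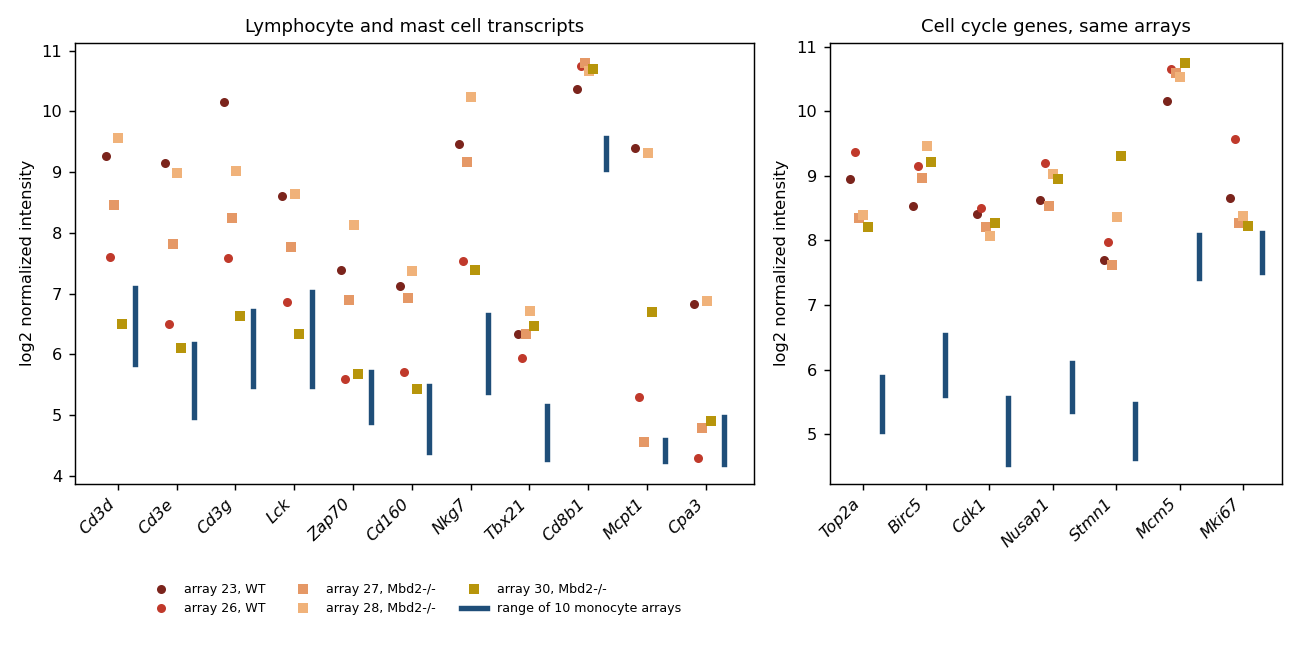
Log2 normalized intensity (vertical) of lymphocyte and mast cell transcripts (left) and of cell cycle genes (right) on the 5 cDC1 arrays, drawn singly, with the range of the 10 monocyte arrays as a blue bar. On the left *Mcpt1* reads 9.39 on array 23 and 9.32 on array 28 and no more than 6.70 on the other cDC1 arrays. On the right the cDC1 arrays lie above the monocyte range.

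The plot shows how these transcripts varied from one cDC1 array to the next. Without arrays 23 and 28, a choice made after these values were seen, 1012 genes were called higher and 1191 lower, of which 872 and 1057 were called with all arrays too. The cDC1 receptors and effectors then gave 15 higher, the cell cycle genes 23 higher and the lineage factors 6 higher, and the monocyte receptors gave 23 lower. The lymphocyte markers gave 7 higher in place of 10, and the eosinophil and mast cell markers 0 in place of 2. A probe still needed detection on 5 arrays. *Xcr1*, *Clnk*, *Mcpt1* and *Cpa3*, detected on few or no monocyte arrays, were therefore no longer tested. The 0 thus reflects the filter, and a lower count of genes higher in cDC1s need not mean a lost difference. The part of lymphocyte or mast cell RNA in the other differences was not tested.

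Macrophage markers summed to 1056 to 1981 on the cDC1 arrays, 5140 to 9253 on the monocyte arrays and 14572 to 20162 on the macrophage arrays of the series. Of 9 tested, 7 were lower in cDC1s than in monocytes, among them *Mertk*, an efferocytosis receptor (-2.59), and *Apoe* (-2.63), and *Timd4*, a receptor for phosphatidylserine, was higher (2.50, SE 0.22). Epithelial markers were bright and variable in both cell types, with sums of 7980 to 24156 on the cDC1 arrays and 11718 to 28056 on the monocyte arrays, and 0 of 13 were called. Neutrophil markers were lower in cDC1s for 3 of 8 and B cell markers for 2 of 7. Of 10 stromal and endothelial markers 1 was lower (*Pecam1*, -1.32), a share near the 9.26% lower among all genes. Plasmacytoid dendritic cell markers gave 3 of 7 higher, including *Siglech* (1.28), and 1 lower, and cDC2 markers 2 of 7 higher and 1 lower, against 7.92% higher among all genes. The part of these other cells in the results was not tested. Over the consistent genes, the mean of the 10 macrophage arrays lay nearer to the monocyte than to the cDC1 mean for 614 of 683 higher genes (89.9%) and for 723 of 872 lower genes (82.9%), a description that was not tested.

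Whether the cell type difference itself depended on genotype was tested with only 2 WT and 3 *Mbd2*-/- cDC1 arrays. The number of genes called was unstable, from 0 under median scaling to 533 without array 26. In the interaction, 77 genes were called (0.622%), 38 with a larger cDC1 minus monocyte value in *Mbd2*-/- mice (0.307%) and 39 with a smaller one (0.315%), and 2320 genes had an unadjusted p under 0.05. *Ets2*, a transcription factor, had the smallest p. It read 9.98 and 10.31 on the WT and 11.31, 11.19 and 11.36 on the *Mbd2*-/- cDC1 arrays, and 12.63 to 12.94 on the monocyte arrays. It was therefore lower in cDC1s in both genotypes, with -2.74 within WT and -1.42 within *Mbd2*-/- (difference 1.32, adjusted p = 0.00298). *Tgm2*, a transglutaminase, behaved alike (-3.18 within WT and -2.08 within *Mbd2*-/-). *Ifi207*, an interferon-inducible gene, read 9.79 and 9.93 on the WT and 8.37, 8.24 and 7.80 on the *Mbd2*-/- cDC1 arrays against 9.68 to 10.58 on the monocyte arrays (-0.22 within WT, -2.20 within *Mbd2*-/-, adjusted p of the difference 0.0139). *Fabp3*, a fatty acid binding protein, was undetected on every cDC1 array, so its 2 values (-0.26 within WT and -1.69 within *Mbd2*-/-) differ by its level on the monocyte arrays. Of the other genes among the 10 with the smallest p, *5430427O19Rik*, *Kmt2c* and *Rab18* had smaller values in *Mbd2*-/- mice and *Aatk*, *Morn1* and *1600029I14Rik* larger ones, and *1600029I14Rik* was higher in cDC1s in both genotypes (1.95 and 3.52).

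This count rested on single arrays. It was 12 without WT cDC1 array 23 or without *Mbd2*-/- array 30, 533 when WT array 26 was dropped and 289 when *Mbd2*-/- array 27 was, and it ran from 32 to 50 without any 1 of monocyte arrays 2, 3, 7, 9 and 10. In the deposited table the arrays stand in runs of 6, and the WT cDC1 arrays stand among monocyte arrays while the *Mbd2*-/- cDC1 arrays stand among macrophage and T cell arrays. What a run stands for is not given in the sources used here, and cDC1 genotype and position in the table cannot be told apart. The counts of 981 higher and 1147 lower genes, in contrast, stayed between 944 and 993 and between 1120 and 1180 when any 1 array was left out.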

How the data were processed

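RNA from 5 cDC1 and 10 monocyte samples was profiled on Illumina MouseWG-6 BeadChips. The authors deposited intensities exported from GenomeStudio for 45281 probes, neither normalized nor background-subtracted, with a detection p-value per probe and array that the software computed against 936 negative control probes. The submitters' processing notes name lumi and limma, with versions not given in the sources used here. Of the per-array signals in that file, 3 columns match no sample and were left out. No check of *Mbd2* itself was made.

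limma's nec removed background (normexp on the control probes, offset 16). The colon arrays, 25 in all, then went through quantile normalization as 1 set and log2 transformation (R 4.3.3, limma 3.58.1, version 1.17.8 of data.table; figures with Python 3.11.15 and matplotlib 3.10.9). Probes with a detection p below 0.05 on 5 or more of the 15 arrays were tested. limma (lmFit, eBayes) was fitted with cell type and genotype, and a second model of 4 groups gave the cell type difference within each genotype and their interaction. Tests were two-sided with Benjamini-Hochberg adjustment over all probes. A gene took its brightest tested probe, and 3790 genes had more than 1. Of all probes, 27655 were named by accession and 3817 through a synonym of the RefSeq table (GRCm38.p6), which also gave the promoters. Where 1 cell type had no detected array, the fold is a bound against the lowest signal above background.

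Genes were named as the largest differences of each list and its best-known members, the 15 widest consistent differences without overlap in each direction, and the 10 smallest p of the interaction. The members and lists were chosen with earlier results of these data known. The fits were tested on simulated data before use. The number of arrays limits the precision, and 33 alternative settings were tried. Some genes of the lists are counted but not reported by name here.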

Additional observations from a re-analysis of the deposited data

Results flagged for a closer look

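Single arrays stood apart for 12 of the 354 groups of named genes examined (3.39%), where chance gives about 1 in 20. Among the cDC1 arrays, array 23 was the lowest for *Tlr12* (6.94, the nearest 7.93) and the highest for *Ppt1* (12.23, the nearest 11.26). Array 30 was the highest for *Tlr5* (4.67, the nearest 4.33) and *Lamp1* (10.46, the nearest 10.23). Among the monocyte arrays, array 3 was the lowest for *Ms4a6d* (12.99, the nearest 13.25), *Chil3* (10.88, the nearest 11.92) and *Chil4* (10.07, the nearest 11.51). WT monocyte array 5 was the highest for *Ccl17* (7.94, the nearest 6.63), WT array 1 the lowest for *Tnni2* (6.13, the nearest 6.55) and WT array 2 the lowest for *Inhba* (8.71, the nearest 9.57). *Mbd2*-/- monocyte array 6 was the highest for *Aldh1a2* (5.12, the nearest 4.73) and array 7 for *Rtl8c* (5.40, the nearest 4.87). When any 1 of the 15 arrays was left out, each of these genes kept the direction of its cell type difference and its side of the threshold.

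The cell type difference depended on genotype, by the interaction term of the limma fit, for 13 of the named genes. The value was larger in *Mbd2*-/- mice for *Ets2* (1.32, adjusted p = 0.00298), *Aatk* (1.32, adjusted p = 0.0129), *Morn1* (1.33, adjusted p = 0.0141), *1600029I14Rik* (1.57, adjusted p = 0.0144) and *Tgm2* (1.10, adjusted p = 0.0144). It was also larger for *Ctsa*, cathepsin A (2.06, adjusted p = 0.0152), *Cyp8b1* (1.06, adjusted p = 0.0282) and *Clec4d* (1.21, adjusted p = 0.0412). It was smaller for *Fabp3* (-1.43, adjusted p = 0.00412), *5430427O19Rik* (-1.46, adjusted p = 0.0109), *Kmt2c* (-1.33, adjusted p = 0.0139), *Ifi207* (-1.98, adjusted p = 0.0139) and *Rab18* (-1.28, adjusted p = 0.0152). For the 10 of these with the smallest p, single arrays mattered: without WT cDC1 array 23 the calls of *Aatk*, *Ifi207*, *1600029I14Rik* and *Rab18* were lost (1.25, -2.06, 1.27 and -1.31), without array 26 that of *Tgm2* (0.93) and without array 30 that of *Rab18* (-1.23). Median scaling removed the call of each of the 10. The value was then smaller for *Ets2* (1.03) and *1600029I14Rik* (0.86) but larger in size for *Ifi207* (-2.20), *Kmt2c* (-1.53), *5430427O19Rik* (-1.55) and *Rab18* (-1.50). With array weights each but *Ets2* lost its call at nearly the same value, such as 1.34 for *Aatk* and -1.39 for *Fabp3*. *Clec4d*, *Ctsa* and *Cyp8b1* were not followed in this way.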

How the results depend on the processing

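Of 177 named genes, 123 kept direction and call under every setting in which they were tested, and 1 reversed: *Ifi207*, which was 0.043 with the position in the table as a block. In all 33 settings were tried, but some genes were not tested in each, such as *Mcpt1*, which was tested in 26. Without background correction 484 genes were higher and 672 lower, 1211 were called within WT and 1217 within *Mbd2*-/-, 342 and 535 were consistent, 35 had an interaction and 3 homing genes were lower. With an offset of 50, 644 genes were higher and 3 homing genes lower. Median scaling moved the median of all genes to -0.32 and the share of calls that were higher from 46.1% to 20.0%, and gave 504 higher and 2020 lower, 348 and 1474 consistent, 0 interactions by limma (1083 at an unadjusted p under 0.05), 2 class I genes higher, and 4 retinoic acid or TGF-beta genes and 8 glycolysis genes lower. With no minimum fold 3375 genes were higher and 3235 lower, 4959 were called within WT and 5932 within *Mbd2*-/-, 1942 and 1854 were consistent, 8 class II and 9 class I genes were higher, and 6 retinoic acid or TGF-beta and 9 glycolysis genes lower. With a minimum of 2, 225 genes were higher and 361 lower, 666 and 637 were called within WT and *Mbd2*-/-, 162 and 297 were consistent and 7 had an interaction. The lists then gave 3 lineage factors and 1 class I gene higher, and 1 migration gene, 10 cytokines, 5 chemokines, 2 transcription factors, 2 homing, 0 retinoic acid or TGF-beta, 2 lysosomal and 1 glycolysis gene lower. The interaction gave 1 gene with array weights, 2 at an adjusted p under 0.01 and 5 without arrays 23 and 28. The 6-group model gave 3 homing genes lower, and the position as a block, or the first 2 positions alone, 3 homing and 3 migration genes lower. With the block 781 of the 981 higher and 993 of the 1147 lower genes remained called, and 792 and 984 with the first 2 positions alone. The cause of these shifts was not tested, other than the changed threshold where there was one.

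Leaving out 1 array at a time gave 944 to 993 genes higher and 1120 to 1180 lower, 604 to 714 and 814 to 886 consistent, 12 to 533 interactions and 3 to 5 homing genes lower. No paired analysis was made, because the labels do not give the mice or the experiment behind each array. Whether cDC1 and monocyte arrays share animals is therefore not known. The interaction and the within-genotype calls could not be fitted with the position as a block, whose cell type difference rests on arrays 23 and 26. With 5 cDC1 arrays, 2 of them WT, small differences within a genotype have little precision, and differences of genes near the floor or the top of the scale can be understated.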

Other observations

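Some genes listed as markers of other dendritic cells were higher in the cDC1 than in the monocyte arrays. *Kmo*, an enzyme of tryptophan breakdown listed with cDC2 markers, was higher by 2.16 (SE 0.18), and *Pacsin1*, listed with plasmacytoid dendritic cell markers, by 2.46 (SE 0.32), both in WT and in *Mbd2*-/- arrays. *Ltb*, lymphotoxin beta (1.12), and *Cox6a2* (1.17) were called with genotype as covariate but not within both genotypes, and *Cox6a2* was -0.02 within WT and 2.07 within *Mbd2*-/-. From the same lists *Tcf4*, the E-protein of plasmacytoid dendritic cells, differed by -1.46 (SE 0.10) in both genotypes, while *Clec10a*, a lectin (-1.19), was called with genotype as covariate but not within both. The macrophage scavenger and lectin receptors *Mrc1* (-3.18), *Siglec1* (-3.09) and *Stab1* (-2.21) were lower in cDC1s in both genotypes, as was *Cfb*, complement factor B (-3.21). Of the consistent genes, 18 higher ones were detected on 0 of 10 monocyte arrays and 50 lower ones on 0 of 5 cDC1 arrays. The detection filter and the unequal numbers of arrays shape these counts, so they cannot be compared. A called interaction with genotype was also found for 17 consistent genes.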
